A study of Mus musculus with 2 samples.

Results

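The cytosolic ribosomal protein genes are the genes for the proteins of the cytoplasmic ribosome. They were found by symbol: every probe whose identifier carries a zero-padded NCBI Gene number of at least 10000 was named, and symbols starting with Rpl or Rps followed by a digit, p or a were kept, without the Rps6k kinases and symbols ending in -ps. This gave 74 genes (42 of the large and 32 of the small subunit) with 83 of the 46643 probes on the array, among 8102 named genes in all. The gene table lists 89 protein-coding symbols that meet the rule. Of these 73 have a named probe, and the other 16, among them Rpl5, Rpl8, Rpl9, Rpl14, Rpl22, Rpl31 and Rplp1, are not analysed here. The remaining member, Rps4l, is classed in that table as a transcribed pseudogene.

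The study set mouse ES cells at day 0 against EB cells at day 4, with 1 bead array for each. The labels do not spell out ES and EB; in stem cell work they are the usual short forms of embryonic stem and embryoid body. Per the labels, the arrays were run to be set beside SOLiD sequencing of these RNA sources, which is not used here. The labels name no cell line, strain or treatment, and total RNA was used from both. With 1 sample a group there is no replicate and no test: each difference describes these 2 arrays, and each error is a bead-level standard error that covers measurement within an array only. In RNA from a mixed sample, fewer cells of a type and less RNA per cell cannot be told apart.

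A ribosome joins a small subunit, which reads the messenger RNA, to a large subunit, which forms peptide bonds, and each subunit pairs ribosomal RNA with many different proteins. Most of the proteins have a single copy in each ribosome, their genes are active in nearly every cell, and most of their messenger RNAs begin with a terminal oligopyrimidine tract (TOP), a C followed by a run of C and U letters through which the mTOR pathway and the protein LARP1 control translation. Many of these genes have processed pseudogenes of nearly the same sequence, so a probe signal can hold RNA from copies as well as from the gene.

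The start of the gene is where that tract lies, so the stretch around the RefSeq start (assembly GRCm38.p6) is shown for 8 members that the results below return to. Each window runs from 20 bases before to 10 bases after the start, 5′ to 3′ on the gene's strand, and capitals mark a C followed by at least 4 letters that are each C or T, as far as it lies in the window, with its first C within 5 bases of the start. The windows are Rpl27a at chr7:109519175-109519204 (plus strand), Rpl38 at chr11:114668560-114668589 (plus), Rps6 at chr4:86857358-86857387 (minus), Rpl35 at chr2:39005122-39005151 (minus), Rps27 at chr3:90213639-90213668 (minus), the first listed start of Rps27l at chr9:66946066-66946095 (plus), Rplp0 at chr5:115559447-115559476 (plus) and Rps13 at chr7:116334181-116334210 (minus).
Rpl27a: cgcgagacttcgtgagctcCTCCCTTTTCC
Rpl38: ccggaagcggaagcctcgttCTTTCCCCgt
Rps6: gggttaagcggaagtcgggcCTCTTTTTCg
Rpl35: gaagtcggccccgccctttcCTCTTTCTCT
Rps27: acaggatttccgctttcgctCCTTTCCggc
Rps27l: cctctccactcctccccgccgCCTCTatcc
Rplp0: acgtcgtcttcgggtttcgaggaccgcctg
Rps13: cgcgcgagagcaaacgtcggtgagtggcgt
The first 5 carry the tract at the listed start and Rps27l carries a short one, while the windows of Rplp0 and Rps13 hold none; a listed start can differ from the true one, so a window without the tract says nothing about the messenger RNA.

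Of the 74 members 56 were found in the RefSeq promoter table. A tract as defined above was present at 1 or more starts of 27 of these 56 genes (48.2%), against 21.2% of 27025 genes with a window. In the whole window of 300 bases, CCGGAAG, the core bound by ETS factors such as GABP, was present on either strand in 24 of 56 members (42.9%), against 9.93% of all genes. AAGATGGC, a core of the YY1 site, was present on either strand in 5 of 56 (8.93%), against 3.19%, and TATAAA on the gene's strand in 6 (10.7%), against 9.77%. The reverse strand of CCGGAAG begins with C and T letters and can overlap a tract. The 24 members above the signal floor with a tract had a median log2 difference of 0.06, EB minus ES, with a range of -0.30 to 0.43, and the 28 without had a median of 0.06 with a range of -0.20 to 0.66. The ranges overlap along most of their length.

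The arrays carried a median of 38 beads per probe in ES and 37 in EB, and a median signal of 173.9 and 173.3 before normalization. A probe counted as above the signal floor at a normalized signal of at least 230.0, which corresponds to a detection score of 0.99 in EB. The marker genes were checked against the labels: all 12 measured pluripotency genes had a negative difference, EB minus ES (44.5% of named genes above the floor). Of these 10 were lower by at least 2-fold, against 5.35% of named genes. The summed signal of the 12 was 49325 in ES and 5398 in EB, and 12 lay above the floor in ES and 5 in EB. All 4 measured genes of the primitive streak and mesoderm were higher by at least 2-fold, against 3.72% of named genes. Above the floor lay 2 of the 4 in ES and all 4 in EB. Markers of other lineages were higher in part. The 2 named endoderm markers were Gata4, with 173 (under the floor) and 452 (1.39 ± 0.13), and Dab2, with 522 and 719 (0.46 ± 0.12). Of 3 named neural ectoderm markers 2 lay above the floor, Otx2 with 336 and 1542 (2.20 ± 0.09) and Nes with 415 and 416 (0.00 ± 0.15). Of 8 named fibroblast markers 3 lay above the floor, and they went apart: Col1a1 gave 2602 in ES and 1007 in EB (-1.37 ± 0.09), Fbln2 365 and 2205 (2.59 ± 0.07) and Col6a1 312 and 328 (0.07 ± 0.09). The summed signal over all 8 was 4104 and 4289, a sum that holds these opposite differences. Of 6 named blood markers 3 lay above the floor in EB and 0 in ES. The summed signal over all 6 was 1041 and 2242, and its ES part came only from probes under the floor. The part of these cells in the values below was not tested.

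While these markers differed widely, most ribosomal protein genes had nearly the same signal in ES and EB. Of the 74 members 70 had their standing probe (the brightest, where a gene has 2) above the floor in at least 1 array. None of the 70 was higher in EB by the 2-fold size rule, an absolute log2 difference of at least 1, and 1, the pseudogene Rps4l, was lower, while over all 3867 named genes above the floor 3.72% were higher and 5.35% lower. At 1.5-fold, 1 member was higher (Rplp0) and 1 lower (Rps4l), against 12.4% and 12% of named genes. The median log2 difference of the members was 0.03, with quartiles of -0.08 and 0.16, and 38 differences were positive, 29 negative (44.5% over named genes) and 3 exactly 0. Over all named genes above the floor the median was 0.06, with quartiles of -0.26 and 0.35. Within 0.2 of 0 on the log2 scale, a width chosen after the values were seen, lay 51 of the 70 members (72.9%), against 33.7% of named genes.

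**Figure D1:**
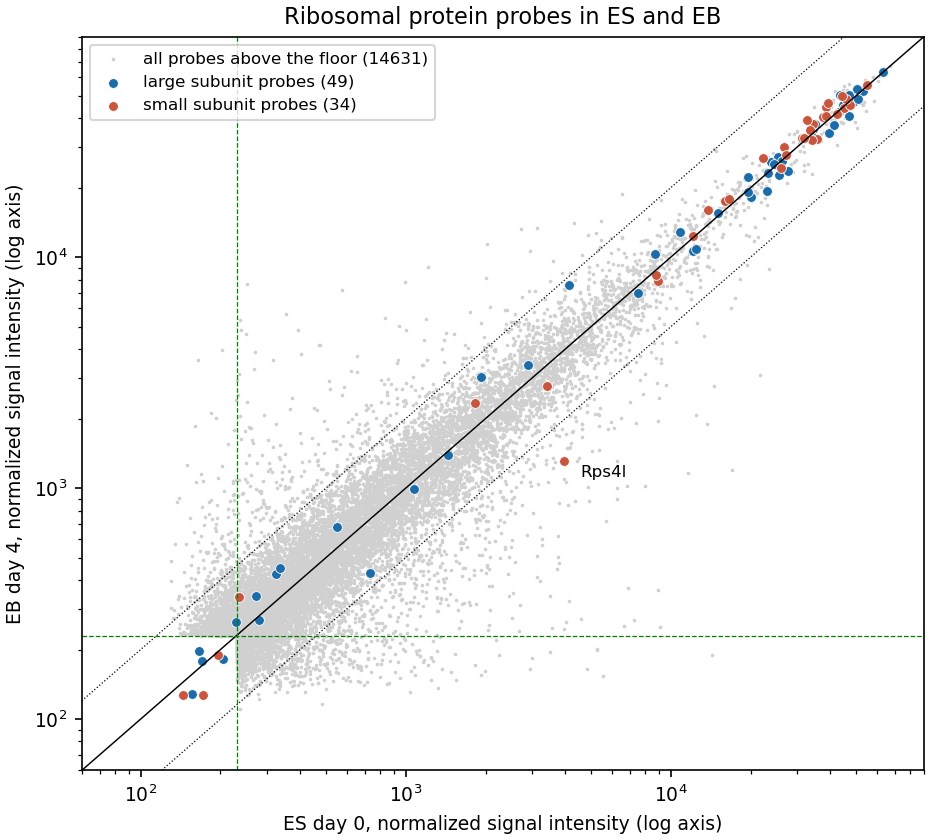
Normalized signal intensity in ES (x axis) and EB (y axis), both on log axes, for all 14631 probes above the floor (grey) and for the 49 large and 34 small subunit probes; solid line, equality; dotted lines, 2-fold; dashed lines, signal floor. Most ribosomal protein probes lie at the bright end on the line of equality, 7 lie under the floor in both arrays, and Rps4l, with 3958 in ES and 1315 in EB, lies beyond the 2-fold line.

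The bright end of the array bears on this comparison. Among the 466 probes of highest mean signal, 57 were ribosomal protein probes, and 28 of the 83 had a raw signal of at least 50 percent of the highest on the array in ES, where it was 66077.1, and 28 likewise in EB, where it was 67813.6. Near the top of a scanner's range differences can be compressed. With a signal of at least 10000 in both arrays, a condition that itself limits how far a probe can differ, 56 ribosomal protein probes had a median difference of 0.03 and a standard deviation of 0.13, and 295 other probes had a median of 0.01 and a standard deviation of 0.25. Within 0.2 of 0 lay 46 of those 56 (82.1%) and 65.4% of the other 295. These sets are not of equal brightness: of the 98 probes with a raw signal of at least 50 percent of the highest in ES, 28 were members, so a larger share of the members lies near the top of the scanner's range. The part of that range in the narrower spread was not tested.

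The bead-level error gives another limit. Of the 70 genes 17 were higher and 8 lower by more than 2 bead-level standard errors, 35.7% in all, against 68.3% of named genes; the median standard error was 0.07 in the members and 0.09 over named genes. Among probes with at least 10000 in both arrays, where the median error was 0.07 in either set, 28.6% of members and 50.8% of the others passed that limit, with the same inequality in brightness. This limit covers only the beads of an array and does not stand for differences between cultures.

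**Figure D2:**
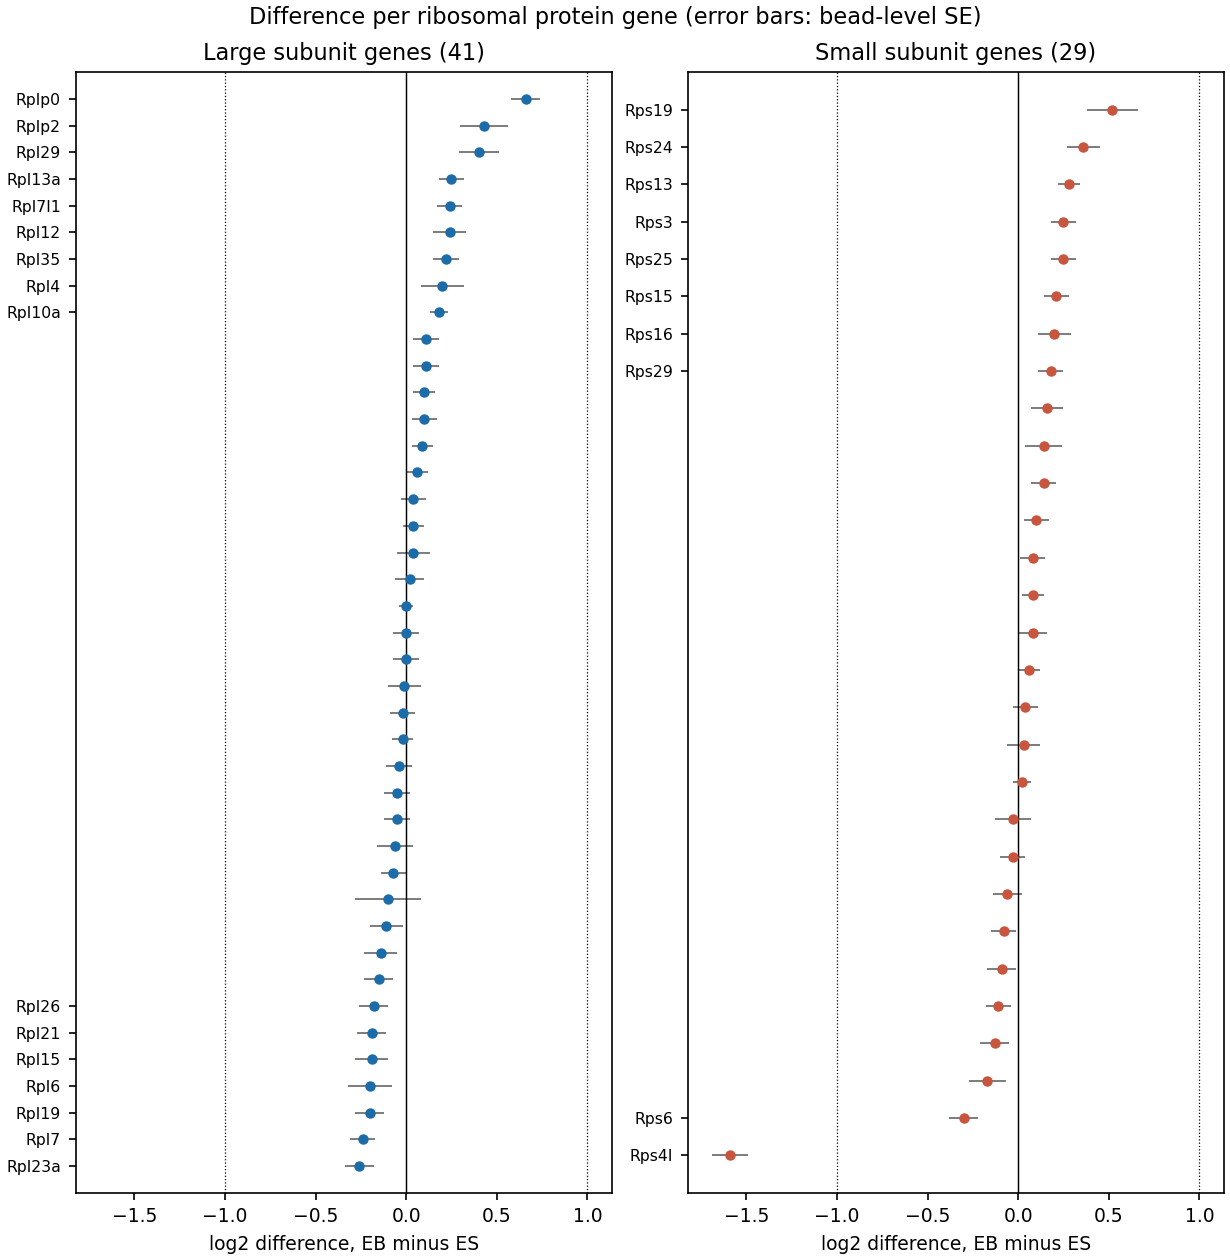
Log2 difference, EB minus ES (x axis), of each of the 41 large and 29 small subunit genes above the floor, sorted, with bead-level standard errors as bars; dotted lines, 2-fold; genes are named where the difference is at least 0.18 in size. The large subunit genes run from -0.26 (Rpl23a) to 0.66 (Rplp0), and the small subunit genes from -0.30 (Rps6) to 0.52 (Rps19) apart from Rps4l at -1.59.

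The subunits were set side by side. The 41 large subunit genes had a median difference of 0, with 19 positive and 19 negative. The 29 small subunit genes had a median of 0.08, with 19 positive and 10 negative. Over named genes 44.5% were negative. On the scale without normalization between arrays the medians were 0.05 and 0.10.

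The stalk of the large subunit recruits the GTPases that drive translation, such as the elongation factors. Its base protein is encoded by Rplp0 and its arms by Rplp1 and Rplp2, with Rpl12 binding next to the base. Rplp0 had signals of 1931 and 3042 in ES and EB (log2 difference, EB minus ES, and its bead-level standard error: 0.66 ± 0.08), 1.57-fold higher. Rplp2 had signals of 336 and 453 (0.43 ± 0.13), not far over the floor. Rpl12 had signals of 10869 and 12849 (0.24 ± 0.09). All 3 measured stalk genes were thus higher in EB, none by 2-fold, where 2140 of 3867 named genes had a positive difference. Rplp0 had the largest positive difference of the 70 members. Rplp0 and Rplp2 each rest on 1 probe, of an identifier form that is taken up below.

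Around the mouth of the tunnel through which the new peptide leaves the large subunit, 7 of 9 listed genes were measured. Rpl23a, which helps dock the signal recognition particle there, gave 23039 in ES and 19271 in EB (-0.26 ± 0.08), the lowest difference of the large subunit. Rpl19 had signals of 47179 and 41005 (-0.20 ± 0.08), Rpl26 gave 25594 and 22636 (-0.18 ± 0.08), and Rpl35 went the other way with 43441 and 50439 (0.22 ± 0.07). Rpl17 (-0.01), Rpl39, which lines the tunnel (0), and the brighter probe of Rpl38 (0.09) were nearly equal. The median of the 7 was -0.01, with 2 positive, 4 negative and 1 at 0, so these neighbours on the ribosome had differences of both signs. Rpl11, which with Rpl5 carries the 5S ribosomal RNA and can bind the p53 regulator Mdm2, gave 34244 in ES and 35737 in EB (0.06 ± 0.06).

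Other large subunit genes filled the narrow range between. Rpl7 had signals of 27740 and 23549 (-0.24 ± 0.07), Rpl6 of 12451 and 10841 (-0.20 ± 0.12) and Rpl15 of 39470 and 34531 (-0.19 ± 0.09). Rpl13a, whose protein also acts off the ribosome in interferon-driven control of translation, had signals of 8713 and 10363 (0.25 ± 0.07), and Rpl10a of 19627 and 22300 (0.18 ± 0.05). Rpl29, with signals of 323 and 426 (0.40 ± 0.11), lay near the floor. Rpl3, which reaches toward the site of peptide bond formation, had signals of 46958 and 50524 (0.11 ± 0.07). Rpl41, the shortest of the ribosomal proteins, had the same normalized signal of 63077 in both arrays. Rpl37a (23178) and Rpl39 (33853) were equal as well, a result of rank-based normalization, under which probes of equal rank receive 1 value; before it Rpl41 gave 61879.0 and 64275.9.

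In the small subunit, Rps6, the substrate of the ribosomal S6 kinases downstream of mTOR, gave 3406 in ES and 2760 in EB (-0.30 ± 0.08), the most negative difference of the standard ribosomal proteins. Rps23, at the decoding centre, gave 8928 and 7919 (-0.17 ± 0.10). On the higher side were Rps13 with 22283 and 26974 (0.28 ± 0.06), Rps25, which several viral internal ribosome entry sites need, with 39079 and 46520 (0.25 ± 0.07), and Rps16 with 38642 and 44484 (0.20 ± 0.09). Rps15 had signals of 13871 and 16067 (0.21 ± 0.07) and Rps29 of 44279 and 50078 (0.18 ± 0.07). Among these genes Rps6 had the widest fold, 1.23-fold lower.

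Genes mutated in Diamond-Blackfan anaemia, an inherited failure of red cell production caused by loss of 1 copy of a ribosomal protein gene, formed a list of their own. Of 18 listed genes 16 had a named probe and 15 lay above the floor. Of these 11 had a positive and 4 a negative difference (44.5% negative over named genes), with a median of 0.06 (also 0.06 over all named genes). None passed 2-fold, against 3.72% of named genes higher and 5.35% lower. Rps19, the gene most often mutated in that disease, gave 236 in ES and 338 in EB (0.52 ± 0.14), just over the floor. In the authors' series value table the difference of Rps19 came to 1.52 on the log2 scale, past the size rule; how that table was made is not stated. Rps24 had signals of 1828 and 2343 (0.36 ± 0.09). Rps26 gave 45722 and 48300 (0.08 ± 0.06), Rps7 31932 and 32936 (0.04 ± 0.07), Rps10 34280 and 37691 (0.14 ± 0.07), Rps28 31340 and 32755 (0.06 ± 0.06) and Rpl35a 15117 and 15507 (0.04 ± 0.06).

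Some members are copies or relatives of standard ribosomal proteins. Rps4l, an autosomal relative of the X-linked Rps4x, gave 3958 in ES and 1315 in EB (-1.59 ± 0.10), 3.01-fold lower. Rps4x, by contrast, had signals of 27159 and 27740 (0.03 ± 0.09). Near-identical copies can share signal, so the value of Rps4l is uncertain as to its source, though its difference is far from that of Rps4x. Rps27l, a relative of Rps27 that p53 can induce, had signals of 26765 and 29914 (0.16 ± 0.09), and Rps27 itself 26155 and 24294 (-0.11 ± 0.07). Rpl22l1, a relative of Rpl22, had signals of 1071 and 995 (-0.11 ± 0.09), and Rpl7l1, a protein of large subunit assembly, 2898 and 3411 (0.24 ± 0.07). Rpl36al, a copy of Rpl36a, gave 280 and 268 (-0.06 ± 0.10), and Rpl36a 35046 and 37571 (0.10 ± 0.06). Without these 5 relatives, 65 genes remained above the floor, with a median of 0.04, a standard deviation of 0.19 against 0.27 with them, and none past 2-fold in either direction.

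Rps27a and Fau make a ribosomal protein fused to ubiquitin or a ubiquitin-like protein. Rps27a gave 54774 in ES and 55707 in EB (0.02 ± 0.05). Fau, which encodes the small subunit protein Rps30 and lies outside the symbol rule, had signals of 23775 and 23897 (0.01 ± 0.07).

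**Figure D3:**
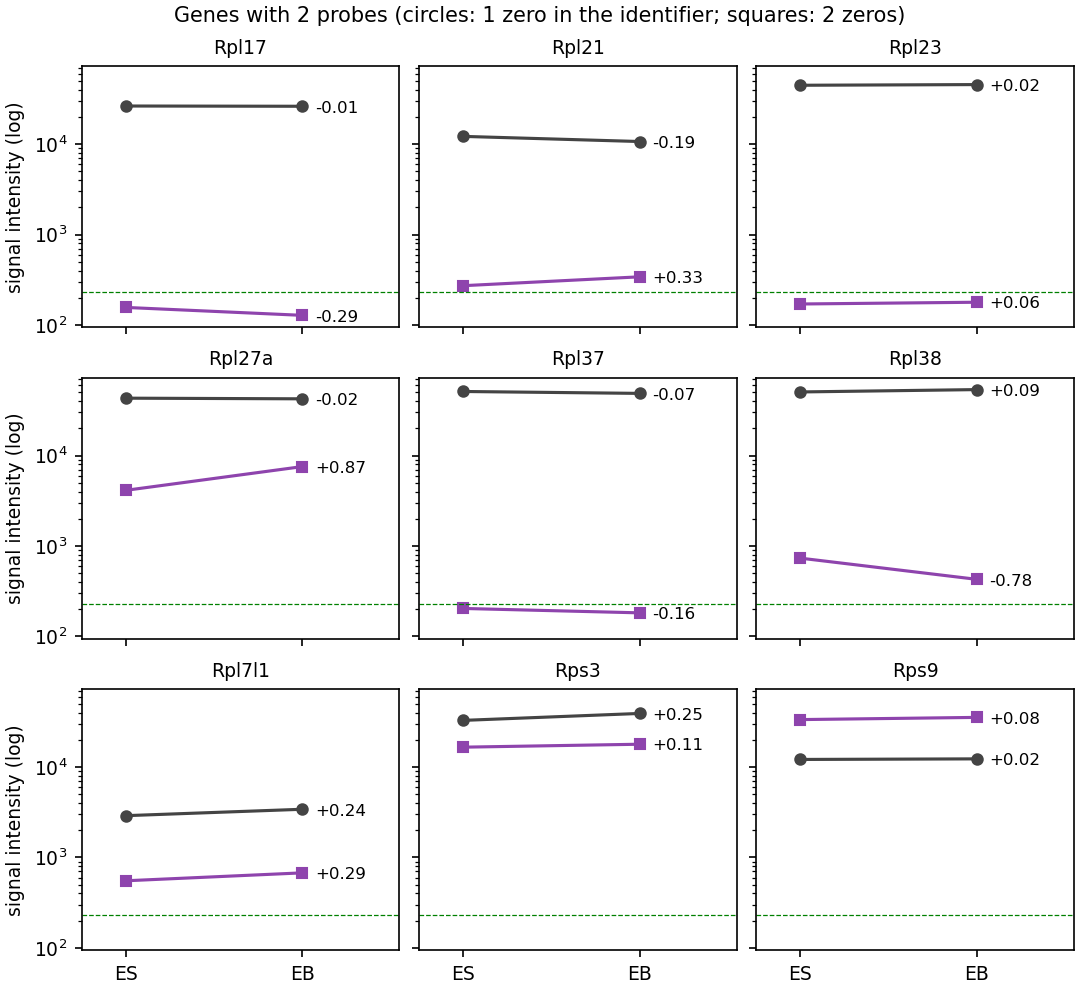
Normalized signal intensity (y axis, log) in ES and EB of both probes of the 9 genes with 2 probes; numbers beside the lines are log2 differences, EB minus ES, the dashed line is the signal floor, and marker shape gives the number of zeros that pad the gene number in the identifier. The probes run nearly parallel for Rpl7l1, Rps3 and Rps9 and part for Rpl21, Rpl27a and Rpl38, while the lower probes of Rpl17, Rpl23 and Rpl37 lie under the floor.

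Probes of the same gene were compared. Of the 9 genes with 2 probes, both were above the floor in 6, and their signs matched in 3 of these. Rps3, near the entry of the messenger RNA channel, gave 0.25 ± 0.07 (signals of 32755 and 39079) and 0.11 ± 0.06 (16566 and 17853). Rps9 gave 0.08 and 0.02, and Rpl7l1 gave 0.24 and 0.29. In these 3 genes the probes differed by at most 1.67 standard errors of their difference.

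The other 3 pairs parted. The probe of Rpl27a that stood for the gene (identifier scl026451.5_30-S) gave 43046 in ES and 42345 in EB (-0.02 ± 0.07). Its second probe (scl0026451.1_182-S) had 4127 and 7544, a difference of 0.87 ± 0.07, or 1.83-fold higher. For Rpl38, needed in the mouse embryo for translation of certain Hox messenger RNAs, the first probe (scl067671.4_8-S) had 50439 and 53552 (0.09 ± 0.06), and the second (scl0067671.1_2-S) 734 and 428, a difference of -0.78 ± 0.09, or 1.71-fold lower. Rpl21 gave -0.19 ± 0.08 (12152 and 10663) and 0.33 ± 0.12 (272 and 341). The second probe thus differed from the first by 0.89 in Rpl27a, -0.86 in Rpl38 and 0.51 in Rpl21, which is 8.90, 7.82 and 3.64 times its standard error. Of 385 other genes with 2 probes above the floor 5.19% had probes that differed by at least 0.8, a limit chosen after the values of Rpl27a and Rpl38 were seen. With the mean of both probes the sign turned in all 3 genes, with Rpl27a at 0.42, Rpl38 at -0.35 and Rpl21 at 0.07. Which transcript each probe reads is not stated.

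**Figure D4:**
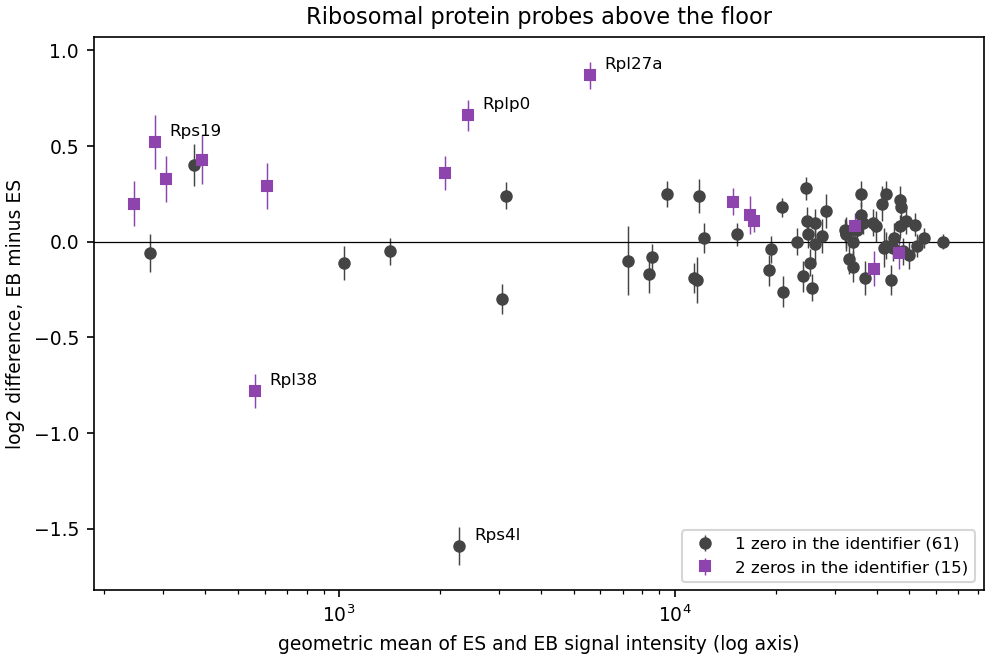
Log2 difference, EB minus ES (y axis), against the geometric mean of ES and EB signal (x axis, log) of the 76 ribosomal protein probes above the floor, with bead-level standard errors as bars; marker shape gives the number of zeros that pad the gene number in the identifier. Probes with 2 zeros are mostly dim and mostly above 0, among them Rpl27a at 0.87 and Rplp0 at 0.66, while Rpl38 at -0.78 lies far below.

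The identifiers come in a pair of forms. The gene number is padded with 1 zero in 61 member probes and with 2 zeros in 22, and what the padding marks is not stated. All 61 of the first form lay above the floor, 50 of them with at least 10000 in both arrays, and their median difference was 0.02. Of the 22 of the second form 15 lay above the floor, 6 with at least 10000 in both arrays, and their median difference was 0.21, with 12 positive and 3 negative. Rplp0, Rplp2, Rps19 and Rps24, which gave 4 of the 6 largest positive differences, and the second probes of Rpl27a, Rpl38 and Rpl21 are all of the second form. Among dimmer members, under 10000 in either array, 9 probes of the second form had a median of 0.36 and 11 of the first a median of -0.08. In other named genes the forms did not part: 2376 probes of the first form above the floor had a median of 0.07 and 1921 of the second a median of 0.06. This pattern was noticed after the values were seen. The higher values of the stalk genes Rplp0 and Rplp2 and of the anaemia genes Rps19 and Rps24 each rest on 1 probe of the second form. That form parted from the first in 3 of the 6 genes that could be compared. The part of the probe form in these higher values was not tested.

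For 4 members every probe lay under the floor in both arrays. They were Rpl18 (166 and 197), Rps15a (196 and 190), Rps18 (144 and 127) and Rpsa, which encodes the laminin receptor protein of the small subunit (172 and 127). All 4 have 1 probe, of the second form. The genes themselves are active in nearly every cell, so a value under the floor gives a bound on the probe, not a level of the gene. Rpl4, whose signal of 229 in ES lay just under and of 263 in EB just over the floor, was measured in EB alone.

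The genes around the ribosome were compared with it. Of 16 other genes with TOP messenger RNAs 0 passed 2-fold, against 3.72% of named genes higher and 5.35% lower. Their median was 0.02, with a range of -0.35 to 0.52. Of these 10 had a positive and 6 a negative difference (44.5% negative over named genes). Hnrnpa1 had signals of 3484 and 4516 (0.37 ± 0.09) and Eif4b 863 and 710 (-0.28 ± 0.12). Eef1a1, at the upper end of the range, had 322 and 461 (0.52 ± 0.13), not far over the floor. Gas5, a non-coding host of small nucleolar RNAs, had 4814 and 3775 (-0.35 ± 0.10). The 33 mitochondrial ribosomal protein genes above the floor, of 35, had a median of 0.10 and a standard deviation of 0.34. Of these 22 were positive and 11 negative, where 44.5% of named genes were negative. By 2-fold 0 passed, against 3.72% of named genes higher and 5.35% lower. By 1.5-fold 4 were higher (12.1%) and 0 lower, against 12.4% and 12% of named genes. The largest difference was that of Mrps21, with 2681 and 5258 (0.97 ± 0.07).

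**Figure D5:**
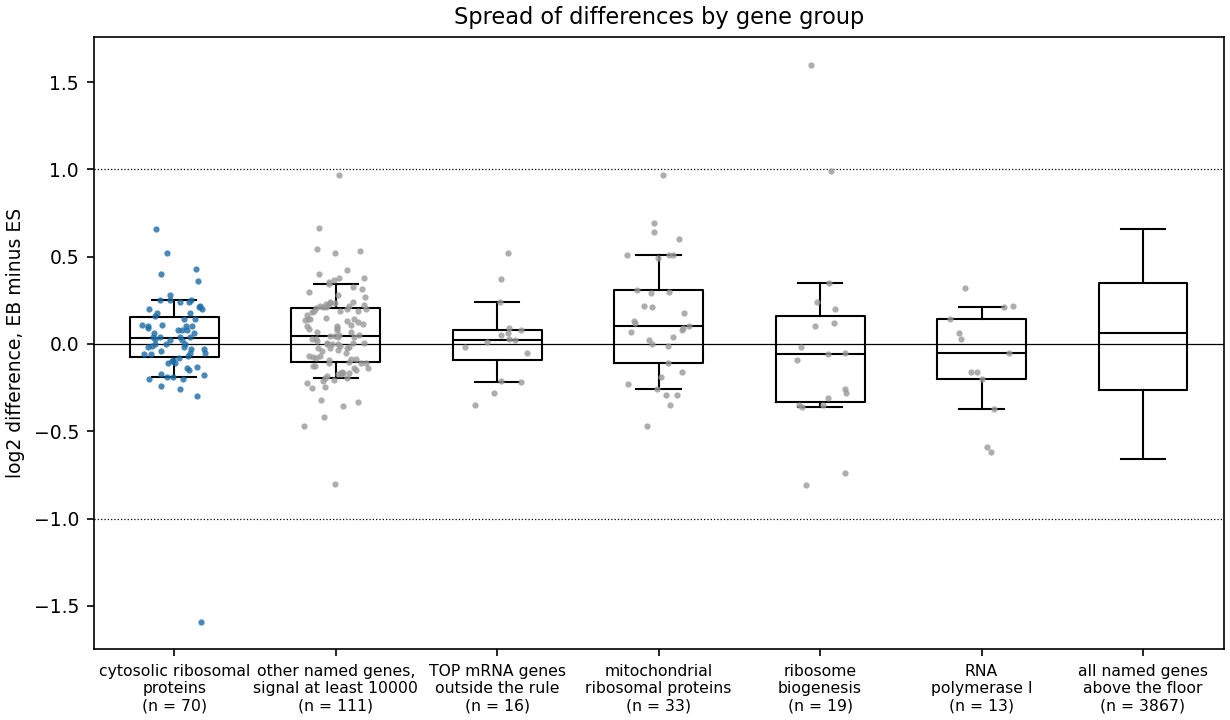
Log2 difference, EB minus ES (y axis), by gene group; points, genes; boxes, quartiles with the median; whiskers, the 10th to 90th percentile; dotted lines, 2-fold; the 3867 named genes are drawn without points. The cytosolic ribosomal proteins (70 genes, quartiles of -0.08 and 0.16) lie nearer to 0 than the named genes as a whole (quartiles of -0.26 and 0.35).

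Of 19 ribosome biogenesis genes above the floor 1 was higher by 2-fold and 0 lower (3.72% and 5.35% over named genes), with 7 positive and 12 negative differences, a median of -0.06 and a range of -0.81 to 1.60. Pes1, needed for maturation of the large subunit, gave 1527 in ES and 4628 in EB (1.60 ± 0.07, 3.03-fold higher), and Ncl, which encodes nucleolin, 1447 and 2877 (0.99 ± 0.09). On the other side, Wdr43, of the small subunit processome, had 2300 and 1316 (-0.81 ± 0.07) and Mybbp1a, a nucleolar protein, 2600 and 1560 (-0.74 ± 0.06). Of 13 genes of RNA polymerase I and its factors 0 passed 2-fold, against 3.72% of named genes higher and 5.35% lower. Of the 13 genes 6 had a positive and 7 a negative difference (44.5% negative over named genes), and the median was -0.05. Ubtf, which binds ribosomal DNA, had 1709 and 1110 (-0.62 ± 0.09), and Rrn3, which brings the polymerase to its promoter, 1687 and 1122 (-0.59 ± 0.07). Next in size came Taf1c, with 1240 and 962 (-0.37 ± 0.09). At the other end, the subunit gene Polr1e had 1189 and 1481 (0.32 ± 0.07).

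In a list of regulators of ribosomal protein genes and their messenger RNAs, which also holds genes of the p53 response, 9 of 13 named genes were above the floor. Of these 8 had a negative difference (44.5% over named genes), 1 was lower by 2-fold (5.35%), and the median was -0.26 (0.06 over named genes). The gene lower by 2-fold was Cdkn1a, with 2760 and 1131 (-1.29 ± 0.09), a cyclin-dependent kinase inhibitor and target of p53 that does not itself regulate ribosomal protein genes. None of the other 8 passed 2-fold. Eif4ebp1, an inhibitor of cap-dependent translation that mTOR inactivates, had 21361 and 12226 (-0.81 ± 0.07), Gabpa, an ETS factor, 534 and 297 (-0.85 ± 0.11), and Larp1, which binds the TOP tract, 1899 and 1583 (-0.26 ± 0.08).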

How the data were processed

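Gene expression was measured on 2 bead arrays, 1 per sample. Per the file headers, signal intensities are means over the beads of a probe, written by BeadStudio 2.3.41 with normalization set to none. The deposited bead spread was taken as a standard error, because it fell with bead number (log slopes of -0.44 and -0.47, where a standard error gives -0.5). The deposited detection score (0 to 1) is used from the EB array. Deposited bead numbers (other unit) are counts of beads. The submitters' processing notes name BeadStudio 2, RMA and limma without a role. The genome build of the probe annotation: not given in the sources used here.

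Intensities were quantile normalized (limma 3.58.1, R 4.3.3) and log2 transformed with no background subtracted; normexp (offset 50) and the authors' series value table were alternatives. A probe was above the signal floor at a normalized signal of at least 230.0, the lowest EB value with a score above 0.99. The brightest probe stood for a gene, and the size rule was a log2 difference of at least 1. Of 11857 zero-padded gene numbers 9796 (82.6%) matched the RefSeq table of GRCm38.p6, used for names. The steps were tested on simulated data. Members, gene lists and settings were chosen with earlier results of these data known; the limit of 10000 for bright probes, the width of 0.2, the split by identifier form and the promoter motifs were chosen after values were seen. Named in the text are the 6 largest differences in each direction, every member past 2-fold, genes with 2 probes, members under the floor and the members of preset lists; other lists are given by counts and up to 4 genes. Some genes are counted but not reported by name here.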

Additional observations from a re-analysis of the deposited data

Results flagged for a closer look

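Ribosomal RNA was not among the genes compared; of its 4 probes 3 were brighter than the floor of 230.0. The 18S ribosomal RNA, the RNA of the small subunit, has 3 probes. The first (position 301 in its identifier) had normalized signals of 53758 and 47057 in ES and EB (log2 difference, EB minus ES, and bead-level standard error: -0.19 ± 0.08). The second (position 523) had 19188 and 12416 (-0.63 ± 0.06), and the third (position 849) 42345 and 30697 (-0.46 ± 0.06). All 3 were lower in EB, by unequal amounts for probes of the same RNA, while the 29 small subunit protein genes had a median of 0.08. The 28S probe lay under the floor, with 155 and 160. How far these probe signals follow the amount of ribosomal RNA was not tested.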

How the results depend on the processing

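No paired analysis was possible because ES and EB have 1 array apiece, which also means that no array could be left out. Over 10 of 12 other settings, those that change the values or the genes counted, the median of the ribosomal protein genes lay between 0.028 and 0.064 and the number of negative differences between 24 and 32. The number higher by 2-fold was 0, and became 1 (Rps19) with the series value table, 1 with a 1.5-fold rule (Rplp0) and 17 with a limit of 2 bead-level standard errors. The number lower was 1 (Rps4l), and became 8 with that limit and 0 without the relatives of standard ribosomal proteins. By single gene, 4 of 70 moved by more than the probe spread of 0.28 with the series table (Rps19, Rplp2 0.82, Rpl29 0.79 and Rpl4 0.73) and 2 with the mean over probes (Rpl27a and Rpl38). Scaling each array to the same median turned the sign of 5 genes, none with a difference above 0.08 in size, no normalization that of 2, none above 0.02, and the mean over probes that of 3 (Rpl21 from -0.19 to 0.07, Rpl27a from -0.02 to 0.42 and Rpl38 from 0.09 to -0.35). Dim signals near the floor limit Rps19, Rplp2, Rpl29, Rpl36al and Rpl4. The top of the scanner's range can limit the brightest members, which was not tested.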
